A study of Mus musculus with 6 samples.

Results

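Homeostatic microglia genes are the set of transcripts by which resting microglia of brain and retina are told from other macrophages. The 8 members described here were P2ry12, P2ry13, Tmem119, Cx3cr1, Siglech, Gpr34, Sall1 and Olfml3. They were taken by gene symbol as known microglial markers, with earlier results of these data known. All 8 were found among the 23420 genes of the count table. The data were RNA sequencing counts of whole mouse retina in 6 libraries, 2 per group, and the labels give the strain as CD1 in each of them. Control mice were untreated. Light-exposed mice received 10000 lux for 1 h and their retinas were taken 4 days later. The remaining mice had the same exposure and in addition minocycline, a tetracycline antibiotic that dampens microglial activation, injected intraperitoneally at 45 mg/kg daily for 4 days. The labels name no vehicle injection for the other groups, and the methods of the study give BALB/cJ mice of both sexes, another light intensity and a first injection before the light, so strain and schedule are uncertain. The table header gives both minocycline columns the same replicate number, so they are told apart as minocycline A and B without a number.

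Microglia arise from yolk sac progenitors and renew themselves within the neural tissue, apart from blood monocytes. Their resting or homeostatic state is held by signals from neighbouring cells, among them TGF-beta, the CSF1 receptor ligands CSF1 and IL-34, and neuronal fractalkine, the ligand of CX3CR1. It comes with receptors for nucleotides and lipids and with a nuclear programme in which SALL1 takes part. Photoreceptor death draws microglia into the outer retina, where they become amoeboid and phagocytic, and in many models of brain disease such cells carry less homeostatic RNA per cell. Whole-retina RNA does not separate cells from one another, so in all comparisons given here the number of microglia and the RNA of a gene per microglial cell cannot be told apart.

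The libraries held between 15205930 and 22856922 counts, and 3 counts in 1 library corresponded to between 0.131 and 0.214 CPM (counts scaled to a common library size with TMM factors over the 6 libraries). One control library stood apart, since control 1 held 77778 counts of Xist against 25 to 188 in the other 5, and 11 counts of Y-linked genes against 6532 to 12858. The summed level of 16 genes of retinal neurons and Müller cells was 79047 and 58451 CPM in the controls, 44512 and 32150 CPM after light and 65098 and 70993 CPM with minocycline, which fits retina as the labelled tissue. The minocycline libraries stood apart in other marker genes. Genes known from corneal epithelium and pigment cells summed to 203 and 337 CPM there, against 4.71 to 16.6 CPM in the other 4 libraries. Genes known from stroma, pericytes and smooth muscle summed to 129 and 462 CPM there and to 42.5 to 59.9 CPM elsewhere. Acta2, Myh11, Dcn and Tagln made up most of this sum in both minocycline libraries. Not every gene of the list rose, since Pdgfrb had 9.71 and 10.4 CPM there and 9.49 to 12.2 CPM elsewhere. Rgs5 had 26.1 and 21.2 CPM against 15.3 to 24.9 CPM. The source of these transcripts was not tested.

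The members lie on 6 chromosomes (GRCm38, GENCODE M21 annotation). P2ry12 (chr3:59216272-59262871) and P2ry13 (chr3:59207892-59210882) are neighbours on the minus strand of chromosome 3, and both lie inside Med12l, a Mediator subunit gene on the opposite strand. Only 9 exonic bases of P2ry12 and 0 of P2ry13 overlap exons of Med12l. Gpr34 (chrX:13632089-13640858, plus strand) lies in the same way inside Cask with 0 shared exonic bases. Olfml3 (chr3:103722222-103738001, minus), Tmem119 (chr5:113793729-113800516, minus), Siglech (chr7:55768178-55778925, plus) and Sall1 (chr8:89027235-89044162, minus) overlap no other annotated gene. Cx3cr1 (chr9:119901616-120069879, minus) spans 9 annotated genes and shares 78 exonic bases with the antisense gene Gm33858. The sources used here do not state whether strand was used in counting.

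Promoter sequence, from RefSeq on GRCm38.p6, was at hand for 6 of the 8 members. The 250 bases before the start are shown for 3 members whose counts rose after light and for Siglech, for which no change was detected, so that they can be read side by side, 5′ to 3′ on the strand of the gene. P2ry12 is from chr3:59262986-59263235, P2ry13 from chr3:59210883-59211132, Cx3cr1 from chr9:120068297-120068546 and Siglech from chr7:55767934-55768183. Capitals mark exact matches on either strand to one of 7 letter patterns: AGGAAGT for the ETS family to which PU.1 belongs, CACGTG for an E-box, CTA and TAG with any 4 bases between them for MEF2, TGTGGT for RUNX (ACCACA where it lies on the other strand), GTCTAGAC for SMAD, GAAA and GAAA with any 2 bases between them for interferon regulatory factors, and TATAAA for a TATA box.
P2ry12: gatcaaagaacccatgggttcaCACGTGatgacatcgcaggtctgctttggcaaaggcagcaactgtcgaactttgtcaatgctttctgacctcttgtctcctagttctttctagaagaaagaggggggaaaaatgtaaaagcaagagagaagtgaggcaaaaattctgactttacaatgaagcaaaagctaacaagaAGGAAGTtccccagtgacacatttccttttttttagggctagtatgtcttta
P2ry13: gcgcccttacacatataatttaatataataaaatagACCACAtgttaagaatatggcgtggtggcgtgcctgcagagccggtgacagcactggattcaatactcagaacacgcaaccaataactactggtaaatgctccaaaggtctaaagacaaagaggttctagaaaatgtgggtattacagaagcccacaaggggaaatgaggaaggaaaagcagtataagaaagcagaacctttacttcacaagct
Cx3cr1: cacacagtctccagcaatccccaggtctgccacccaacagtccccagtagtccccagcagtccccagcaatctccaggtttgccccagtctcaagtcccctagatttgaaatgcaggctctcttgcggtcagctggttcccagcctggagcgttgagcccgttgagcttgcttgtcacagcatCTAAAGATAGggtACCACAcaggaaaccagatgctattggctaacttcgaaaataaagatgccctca
Siglech: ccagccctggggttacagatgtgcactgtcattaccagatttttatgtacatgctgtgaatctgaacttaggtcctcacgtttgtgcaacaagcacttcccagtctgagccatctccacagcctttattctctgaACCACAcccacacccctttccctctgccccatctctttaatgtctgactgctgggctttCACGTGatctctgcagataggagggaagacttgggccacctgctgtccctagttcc
The P2ry12 window holds the ETS pattern 52 to 46 bases before the start and an E-box 228 to 223 bases before it. The Cx3cr1 window holds a MEF2 pattern at 67 to 58 bases and a RUNX pattern at 54 to 49 bases. Siglech has an E-box at 56 to 51 bases and a RUNX pattern at 115 to 110 bases, and P2ry13 a RUNX pattern at 214 to 209 bases. No match overlapped another. Among 32851 promoter windows of the same length, 7.69% held the ETS pattern, 6.02% the E-box, 3.2% the MEF2 pattern and 14% the RUNX pattern. The SMAD (0.167% of windows), interferon (2.98%) and TATA (12.4%) letters were in none of the windows of the 6 members, which says only that these letters are not there.

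Light exposure was compared with control to ask how the homeostatic genes stood 4 days after the damage. The summed level of the 8 members was 19.98 and 13.1 CPM in the controls and 69.5 and 181 CPM after light, a ratio of means of 7.57. In the pairwise edgeR quasi-likelihood test, adjusted over 14349 genes, 5 of the 8 members passed at an adjusted p under 0.05 and all 5 were higher (P2ry12, P2ry13, Tmem119, Cx3cr1 and Sall1). Of all tested genes, 7.52% passed in that direction. Calls that also required the authors' limit of 2 on the log2 fold change numbered 4 among the members, against 2.89% of the tested genes. The light and control libraries did not overlap for 7 of 8 members, and 30.1% of all genes were separated that way. The median log2 fold change was 2.76 over the members and 0.0025 over all tested genes. Each call rested on both controls: leaving out either control library left 0 members past the threshold, 4 and 3 at an unadjusted p under 0.05 without control 1 and control 2, and all 8 fold changes still positive, while over all genes the passes fell to 4 higher without control 1 and to 20 higher and 37 lower without control 2.

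**Figure D1:**
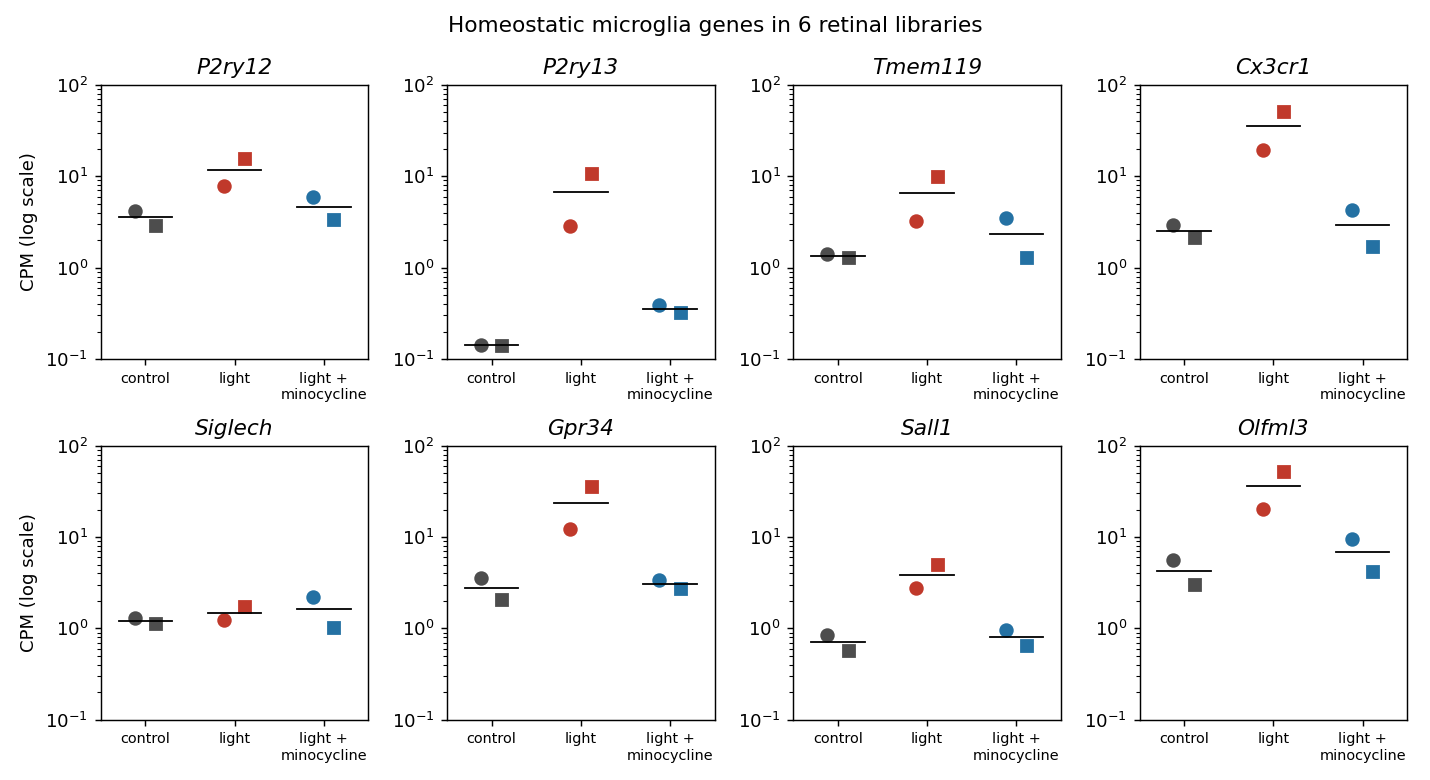
Level of each of the 8 genes in the 6 libraries, in CPM on a log axis. Circles are control 1, light 1 and minocycline A, squares control 2, light 2 and minocycline B, and the horizontal line is the mean of the 2 libraries of a group. Both light libraries lie above both controls for 7 genes and overlap them for Siglech.

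The purinergic receptors sense nucleotides released by injured cells. P2ry12, the ADP receptor that steers microglial processes to a lesion, had 59 and 41 counts in the controls, 134 and 326 after light and 137 and 63 with minocycline. Its mean level rose from 3.55 ± 0.939 to 11.6 ± 5.41 CPM (SD, n = 2), a log2 fold change of 1.73 (SE 0.38, edgeR adjusted p = 0.0227). The increase was the smallest among the members that passed. P2ry13, the neighbouring ADP receptor, had 2 counts in each control, 49 and 222 after light, and 9 and 6 with minocycline. It was close to the detection limit without light and had the largest change of all members, with a fitted log2 fold change of 5.51 (SE 0.86, edgeR adjusted p = 0.0141). Since the control value rests on 4 counts in all, the fitted fold depends on the prior count. The ratio of summed counts, corrected for library size, was 49.99 with a 95% exact counting interval of 19.3 to 185, which covers counting error only.

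Those host and neighbouring genes of this cluster that were tested had smaller fitted changes than P2ry12 and P2ry13, and none passed. Med12l had 371 and 553 counts in the controls and 643 and 1200 after light, a log2 fold change of 0.54 (SE 0.25, edgeR adjusted p = 0.198). P2ry14, a receptor for UDP-sugars in the same cluster, had 9 and 4 counts against 15 and 28 (log2 fold change 1.26, adjusted p = 0.164). Gpr171 had 1 and 0 counts in the controls and 0 and 2 after light, too few to be tested. The higher counts at this locus were thus found for P2ry12 and P2ry13 past the test, while the difference between these genes and their neighbours was not tested.

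Cx3cr1 and Gpr34 are the other G protein-coupled receptors of the set. Cx3cr1, the fractalkine receptor, had 41 and 30 counts in the controls, 331 and 1079 after light and 97 and 32 with minocycline. Its mean level rose from 2.52 ± 0.578 to 35.2 ± 22.5 CPM (SD, n = 2; log2 fold change 3.82, SE 0.60, edgeR adjusted p = 0.0282). Gpr34, a receptor for lysophosphatidylserine, had 50 and 29 counts against 208 and 751. The means were 2.80 ± 1.08 and 23.9 ± 16.6 CPM (SD, n = 2), and the log2 fold change of 3.10 (SE 0.66) did not pass (edgeR adjusted p = 0.0558). It passed in 8 of 16 alternative fits, with an adjusted p of 1.201e-09 in DESeq2 and 0.0106 in edgeR without robust estimation. Gpr34 is X-linked, and the control that stood apart by Xist had the higher of the control values, 3.57 against 2.04 CPM, whose part in the result was not tested. The log2 fold change was 3.54 without control 1, 2.75 without control 2, 3.67 without light 1 and 2.12 without light 2. Cask, the gene around Gpr34, had 819 and 875 counts in the controls and 1209 and 1487 after light (log2 fold change 0.24, edgeR adjusted p = 0.288), and Gpr82 beside it had 0 and 0 counts against 2 and 1.

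Tmem119 and Siglech encode surface proteins used to label microglia. Tmem119, a transmembrane protein that tells microglia from infiltrating macrophages, had 20 and 18 counts in the controls, 56 and 206 after light and 79 and 24 with minocycline. Its level rose from 1.35 ± 0.115 to 6.51 ± 4.60 CPM (SD, n = 2; log2 fold change 2.29, SE 0.53, edgeR adjusted p = 0.0293). Siglech, a sialic acid-binding lectin, was the exception among the 8. It had 18 and 16 counts in the controls, 21 and 36 after light and 51 and 19 with minocycline. Light 1 lay at 1.22 CPM, between the controls at 1.28 and 1.12 CPM, and light 2 at 1.71 CPM. The log2 fold change was 0.30 with a 95% interval of -0.66 to 1.25 (edgeR adjusted p = 0.688), so that increases as large as those fitted for the other 7 members lay outside the interval and smaller ones did not.

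One member acts in the nucleus and one is secreted. Sall1, a zinc finger factor that maintains microglial identity, had 12 and 8 counts in the controls, 47 and 104 after light and 22 and 12 with minocycline. Its level rose from 0.709 ± 0.208 to 3.83 ± 1.55 CPM (SD, n = 2; log2 fold change 2.44, SE 0.47, edgeR adjusted p = 0.0154). Olfml3, a secreted olfactomedin-like protein, had 78 and 42 counts against 348 and 1087, with 217 and 79 under minocycline. Its means were 4.26 ± 1.85 and 35.9 ± 22.1 CPM (SD, n = 2), and the log2 fold change of 3.09 (SE 0.63) did not pass (edgeR adjusted p = 0.0575). It passed in 7 of 16 alternative fits, with an adjusted p of 0.0011 in DESeq2. Light 2 was above light 1 for all 8 members, from 1.39 times in Siglech to 3.69 times in P2ry13, while 50.4% of all tested genes were higher in light 2. Control 1 was likewise above control 2 for all 8 members, as were 50.8% of all genes. Which members passed therefore moved with the light library used: without light 2 the 5 that passed were P2ry13, Cx3cr1, Gpr34, Sall1 and Olfml3, and without light 1 there were 7, all but Siglech. Without light 2 the log2 fold change was 1.28 for Tmem119, 1.15 for P2ry12, 4.26 for P2ry13, 2.94 for Cx3cr1 and 2.26 for Olfml3, and without light 1 it was 6.15 for P2ry13. Over all genes 443 passed as higher without light 2 and 1683 without light 1, against 1079 with all libraries.

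**Figure D2:**
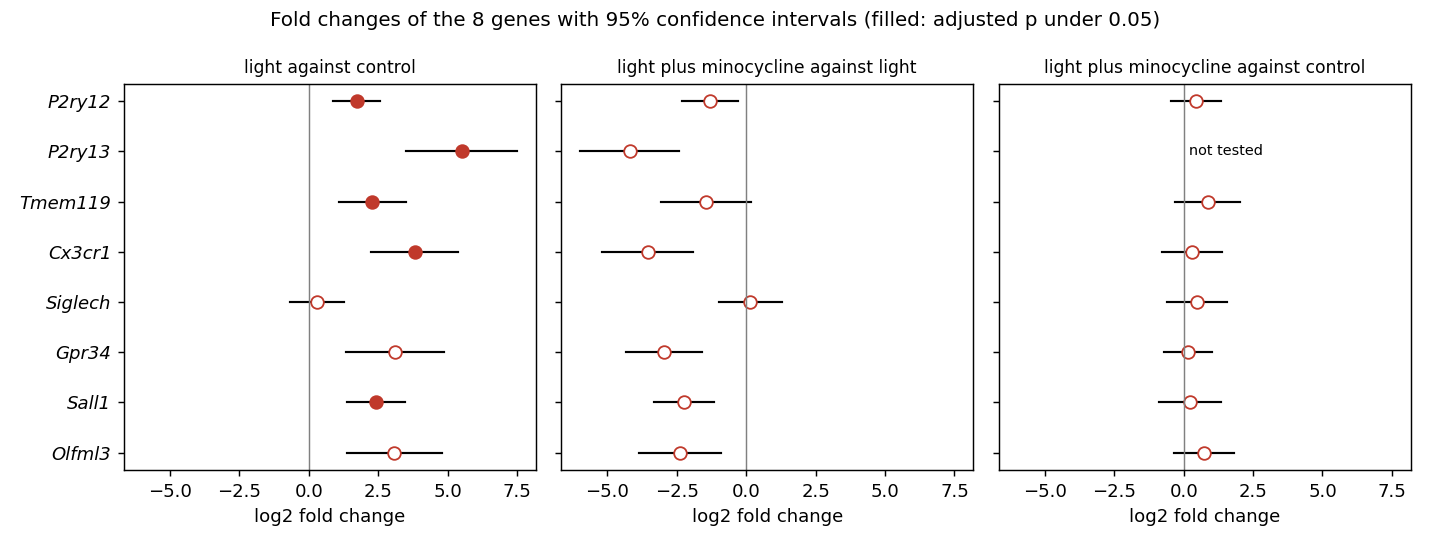
Fitted log2 fold changes of the 8 genes (points) with 95% confidence intervals (lines) from the edgeR test of each pair of groups, filled where the adjusted p was under 0.05. For light against control 5 points are filled, between 1.73 and 5.51, and in the other comparisons none is.

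Levels per length show which of these transcripts were most abundant. Divided by the length of the longest principal GENCODE transcript, the mean control levels were 1.51 ± 0.401 CPM per kb for P2ry12 and 1.34 ± 0.518 for Gpr34 (SD, n = 2). Next came Olfml3 with 0.779 ± 0.338, Tmem119 with 0.600 ± 0.0511, Siglech with 0.563 ± 0.0529 and Cx3cr1 with 0.560 ± 0.129 CPM per kb, whose ranges overlapped from one to the next. Sall1 at 0.135 ± 0.0395 and P2ry13 at 0.0560 ± 0.000602 CPM per kb were below the other 6 in both libraries. After light the order was Gpr34 (11.4 ± 7.95 CPM per kb), Cx3cr1 (7.84 ± 5.01), Olfml3 (6.57 ± 4.04), P2ry12 (4.96 ± 2.31), Tmem119 (2.90 ± 2.05) and P2ry13 (2.65 ± 2.14), and it was the same in both light libraries. Sall1 (0.728 ± 0.294) and Siglech (0.685 ± 0.160) came last, with light 1 and light 2 giving opposite orders. Cx3cr1 thus overlapped Tmem119 and Siglech in the controls and was above both in each light library. The lengths are of an annotation that need not be the one used for counting.

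The make-up of the set changed after light as well. P2ry12 made up 21.1% (95% exact binomial interval 16.4 to 26.3) and 22.0% (16.3 to 28.7) of the summed counts of the 8 genes in the controls, and 11.2% (9.49 to 13.2) and 8.55% (7.69 to 9.49) after light. Cx3cr1 went the other way, from 14.6% (10.7 to 19.3) and 16.1% (11.2 to 22.2) to 27.7% (25.2 to 30.4) and 28.3% (26.9 to 29.8). The share of Siglech was 6.43% (3.85 to 9.97) and 8.60% (4.997 to 13.6) in the controls and 1.76% (1.09 to 2.68) and 0.945% (0.662 to 1.31) after light. These shares do not depend on how libraries were scaled. The intervals cover counting error only, and no exact test between 2 and 2 libraries can give a p below 0.333.

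With minocycline, P2ry12 made up 19.9% (17.0 to 23.1) and 22.0% (17.4 to 27.3), Cx3cr1 14.1% (11.6 to 16.9) and 11.2% (7.78 to 15.4), and Siglech 7.40% (5.56 to 9.62) and 6.64% (4.05 to 10.2). For each of these genes the light libraries were separated from the other 4. That did not hold for Gpr34, whose lowest share was that of minocycline A with 11.2% (8.92 to 13.8), against 15.6% to 19.7% in the other 5 libraries.

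**Figure D3:**
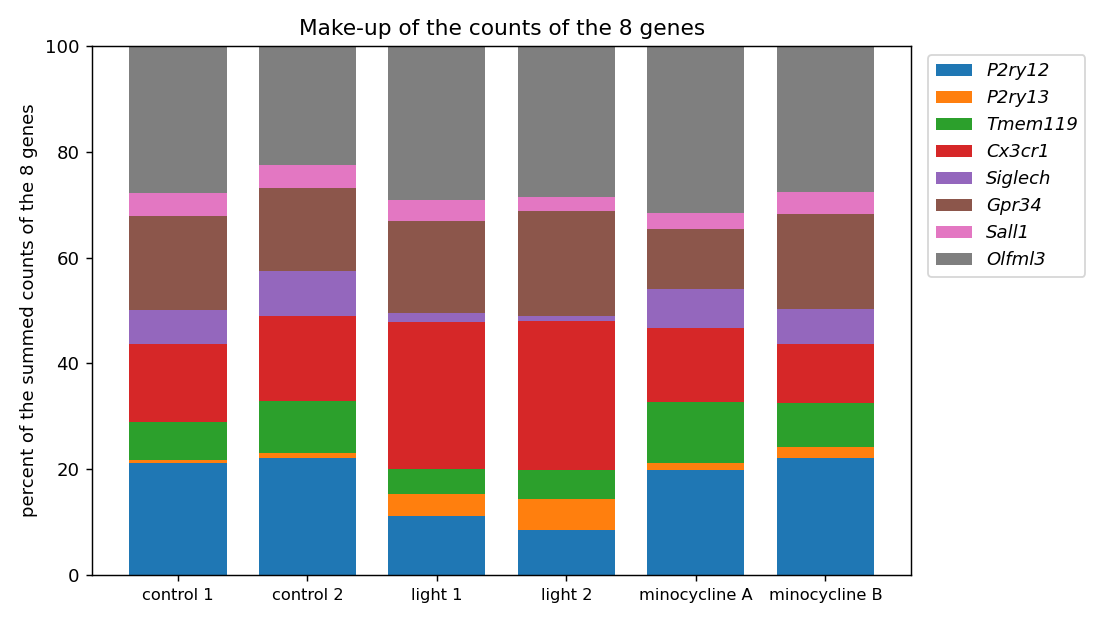
Make-up of the summed counts of the 8 genes in each library, as stacked percentages of 100. Cx3cr1 and P2ry13 take a larger part and P2ry12 and Siglech a smaller part in light 1 and light 2 than in the other 4 libraries.

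General macrophage genes, shared by microglia and infiltrating cells, were set beside the members. The 11 genes of this list (Aif1, Ptprc, Itgam, Cd68, Emr1, Fcer1g, Laptm5, Lyz2, C1qa, C1qb and C1qc) summed to 356 and 521 counts in the controls, 7733 and 32682 after light, and 1589 and 545 with minocycline. Their median log2 fold change after light was 4.54 against 2.76 for the members. In the edgeR test 3 of the 11 passed at an adjusted p under 0.05 (Aif1, Ptprc and Fcer1g), and all 11 were higher without overlap, against 7.52% and 30.1% of all genes. For 1000 counts of these genes there were 787 and 357 counts of the 8 members in the controls, 154 and 117 after light and 434 and 525 with minocycline. The members were therefore higher per library and lower relative to the sum of these genes in both light libraries. Lyz2 and the C1q genes weigh most in that sum. The list was chosen with earlier results of these data known and holds Cd68, which the study reports as induced by light. The lower ratio is therefore a description of these libraries and not an independent test. With each macrophage gene alone, a choice made after seeing the data, the light libraries lay below both controls for 10 of 11. The exception was Aif1, for which the members had 28.0 and 8.45 counts per Aif1 count in the controls and 16.8 and 16.9 after light. The difference between the ratios was not tested.

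The members differed in this ratio too. Siglech stood out, with 50.6 and 30.7 counts per 1000 macrophage counts in the controls and 2.72 and 1.10 after light. P2ry12 had 166 and 78.7 against 17.3 and 9.97, and Tmem119 had 56.2 and 34.5 against 7.24 and 6.30. Cx3cr1 came nearer, with 115 and 57.6 in the controls and 42.8 and 33.0 after light. P2ry13 was alone in not being lower, at 5.62 and 3.84 in the controls and 6.34 and 6.79 after light, with the control values resting on 2 counts each. Minocycline A and B lay above both light libraries for the other 7 members.

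**Figure D4:**
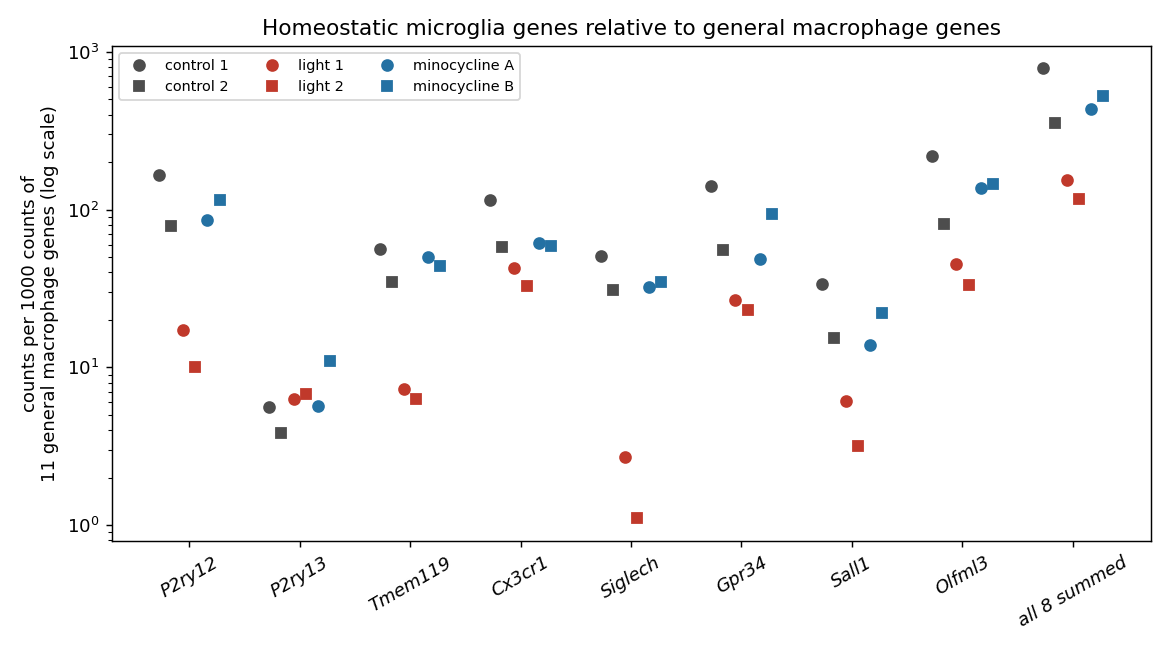
Counts of each of the 8 genes, and of all 8 summed, per 1000 counts of 11 general macrophage genes in the same library, on a log axis. For every gene but P2ry13 both light libraries lie below the other 4.

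The signals that act on these receptors were followed in a list of 18 ligands, adaptors and upstream genes, 17 of which were tested. After light 4 were higher and 2 lower at an adjusted p under 0.05, with a median log2 fold change of 0.50, against 7.52% of all genes higher and 3.80% lower. Cx3cl1, which encodes fractalkine, had 417 and 236 counts in the controls and 481 and 514 after light (log2 fold change 0.19, SE 0.26, edgeR adjusted p = 0.674), beside the higher counts of its receptor. Adam10 and Adam17, the proteases that shed it, had log2 fold changes of -0.07 and 0.06 and did not pass (adjusted p = 0.827 and 0.847).

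Among the growth factors, Tgfb1 rose from 13 and 8 to 54 and 170 counts (log2 fold change 2.92, SE 0.54, edgeR adjusted p = 0.0154). Csf1 rose from 52 and 29 to 118 and 238 counts (log2 fold change 1.67, adjusted p = 0.0235), while Il34, the other CSF1 receptor ligand, had a log2 fold change of 0.50 (adjusted p = 0.415). Smad2, which transmits the TGF-beta signal, fell by 0.54 on the log2 scale (edgeR adjusted p = 0.0381), and Tgfbr2, Smad3 and Smad4 had log2 fold changes of 2.92, 0.35 and -0.36 that did not pass (adjusted p = 0.0876, 0.263 and 0.128).

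Of the enzymes that set nucleotide levels, Entpd1 (CD39), which degrades ATP and ADP, rose by 1.99 on the log2 scale (edgeR adjusted p = 0.0225). Nt5e (CD73), which makes adenosine and had 7093 and 7709 counts in the controls, fell by 0.83 (adjusted p = 0.0197). Gnai2, a G protein subunit on which P2Y12 and CX3CR1 signal, rose by 1.11 (adjusted p = 0.0207). Tyrobp, the adaptor with which Siglec-H pairs, had 46 and 54 counts in the controls and 732 and 2775 after light, and its log2 fold change of 4.63 (SE 0.83) did not pass (edgeR adjusted p = 0.0756). Ctss, a microglial protease, did not pass either (2.97, adjusted p = 0.114), nor did Abhd12 (0.55, adjusted p = 0.104) and Abhd16a (-0.07, adjusted p = 0.780), enzymes of lysophosphatidylserine metabolism. Pla1a, with 1 to 6 counts per library, was not tested.

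Transcription factors known to act with SALL1 or PU.1 in microglia were also measured. Of 8 listed 7 were tested, and 4 passed, all higher (7.52% of all genes): Cebpa (log2 fold change 4.28, edgeR adjusted p = 0.00962), Sfpi1, which encodes PU.1 (3.73, adjusted p = 0.0173), Irf8 (3.39, adjusted p = 0.0197) and Runx1 (2.78, adjusted p = 0.0212). The median of the list was 2.78, near that of the members. Maf, Sall3 and Mef2a, with log2 fold changes of 0.86, 0.33 and -0.29, did not pass (adjusted p = 0.153, 0.504 and 0.202).

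A list of 19 other genes counted as homeostatic gave a wider range. Of 17 tested 9 were higher and 1 lower at an adjusted p under 0.05, against 7.52% and 3.80% of all genes, with a median log2 fold change of 1.44. The largest changes were those of P2ry6, the UDP receptor linked to phagocytosis (5.74, edgeR adjusted p = 0.00962), Ltc4s, the leukotriene C4 synthase (4.08, adjusted p = 0.0220), and Fcrls, an Fc receptor-like molecule (3.92, adjusted p = 0.0132). At the other end were Mef2c, which fell by 0.96 (adjusted p = 0.0137), and Bin1 and Cst3 with -0.48 and -0.21 (the smaller adjusted p = 0.101). These last genes are also expressed by retinal neurons or glia, and the summed level of the list was carried by them, at 1435 to 1534 CPM in the controls.

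Markers of disease-associated microglia, the state that in brain goes with fewer homeostatic transcripts, were higher without overlap in 14 of 14 genes (30.1% of all genes), and 7 passed (7.52% of all genes). Their median log2 fold change was 3.43. Spp1, Clec7a and Trem2 had the largest values (7.79, 5.81 and 5.18) but did not pass (edgeR adjusted p = 0.0610, 0.0918 and 0.105). Their light libraries lay far apart, with 35124 counts of Spp1 in light 2 and 6281 in light 1. The smallest were those of Ctsb at 2.23 (adjusted p = 0.0715), Cd9 at 1.69 (adjusted p = 0.0418) and Lpl at 1.32 (adjusted p = 0.0249).

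Markers of leukocytes other than microglia and of dividing cells were counted beside the members. The list of monocytes, border macrophages, granulocytes and lymphocytes (16 genes in the table) summed to 9.13 and 6.96 CPM in the controls, 10.7 and 11.9 after light and 11.8 and 8.62 with minocycline. Most of this sum was Lyve1, and without it, a choice made after seeing the data, the sums were 2.64 and 1.12 CPM in the controls, 3.49 and 4.98 after light and 2.27 and 3.86 with minocycline. Only 3 of its genes had counts enough to be tested, and 0 passed in edgeR (0 at an unadjusted p under 0.05). Of these 3, 2 were higher without overlap (Mrc1 and Lyve1), as were 30.1% of all genes. Ccr2, the receptor of inflammatory monocytes, had 0 and 0 counts in the controls, 10 and 12 after light and 1 and 0 with minocycline, and Cd3e of T cells had 0 in every library. Proliferation genes summed to 0.785 and 0.351 CPM in the controls and 14.6 and 37.0 CPM after light. Mki67 of this list had 5 and 2 counts against 110 and 381. All 5 tested genes passed as higher, against 7.52% of all genes, with a median log2 fold change of 5.44. Their part in the higher counts of the members was not tested.

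**Figure D5:**
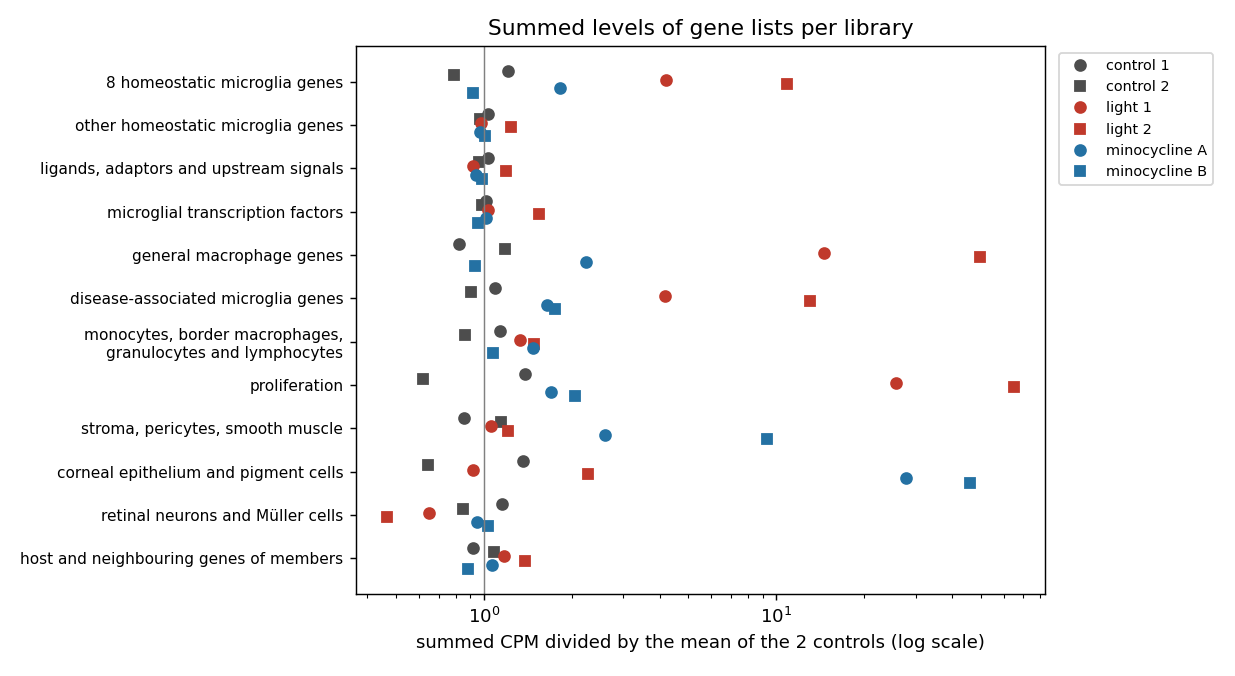
Summed CPM of the 8 genes and of 11 comparison lists in each library, divided by the mean of the 2 controls, on a log axis. The 8 genes are higher in light 1 and light 2, general macrophage, disease-associated and proliferation genes likewise, and genes of cornea, pigment cells and stroma are higher in minocycline A and B.

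Minocycline was compared with light alone to ask whether the treatment changed these transcripts. The summed level of the 8 members was 30.1 and 15.1 CPM with minocycline against 69.5 and 181 CPM, and 7 members had a negative log2 fold change. None passed in the pairwise edgeR test (0 of 8 at an adjusted p under 0.05), in which 0.0407% of 14750 genes were lower. At an unadjusted p under 0.05, 6 members were lower, against 12.1% of all genes, and 0 were higher, against 9.04%. The same number did not overlap, against 28.1%. The median log2 fold change was -2.31 over the members and 0.0062 over all genes. With DESeq2, with all 6 libraries in one edgeR fit and without light 1, 4 members passed each time, namely P2ry13, Cx3cr1, Gpr34 and Sall1. Over all genes these fits passed far more as well, with 737 lower in DESeq2 without shrunken fold changes, 694 with them, 353 in the joint fit and 706 without light 1, against 6 in the pairwise fit.

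Of these, P2ry13 had 49 and 222 counts after light and 9 and 6 with minocycline, a log2 fold change of -4.20 (SE 0.74, edgeR adjusted p = 0.0698). Cx3cr1 had 331 and 1079 counts against 97 and 32 (-3.54, SE 0.64, edgeR adjusted p = 0.0805). Gpr34 had 208 and 751 against 77 and 51 (-2.96, SE 0.55, edgeR adjusted p = 0.0774). The last, Sall1, had 47 and 104 against 22 and 12 (-2.24, SE 0.46, edgeR adjusted p = 0.0730). In each the lower light library was still above both minocycline libraries. With 1 library left out the log2 fold change ran from -4.86 to -2.98 for P2ry13 and from -4.34 to -2.70 for Cx3cr1. For Gpr34 it ran from -3.55 to -2.00 and for Sall1 from -2.61 to -1.77.

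The other members were less separated. Olfml3 had 348 and 1087 counts against 217 and 79, with a log2 fold change of -2.38 (SE 0.58, edgeR adjusted p = 0.117). P2ry12 had 134 and 326 counts against 137 and 63, which is 7.80 and 15.4 CPM against 5.99 and 3.33 CPM (-1.31, SE 0.42, edgeR adjusted p = 0.150). For Tmem119 the groups overlapped, since minocycline A at 3.45 CPM was above light 1 at 3.26 CPM, and the log2 fold change of -1.45 had a 95% interval of -3.07 to 0.17 (edgeR adjusted p = 0.280). Siglech was again flat, with 2.23 and 1.00 CPM in the minocycline libraries and a log2 fold change of 0.15 (interval -0.98 to 1.29, edgeR adjusted p = 0.893). Its sign changed with the scaling and with the library left out. Omitting 1 library gave log2 fold changes from -2.32 to -0.46 for Tmem119 and from -3.07 to -1.57 for Olfml3. For P2ry12 they ran from -1.77 to -0.75.

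Minocycline A was above minocycline B for all 8 members, from 1.24 times in P2ry13 to 2.72 times in Tmem119, and 51.8% of all genes were higher in A. The summed cornea and pigment cell genes and the summed stroma genes ran the other way, being higher in minocycline B. Their part in the counts of the members was not tested. The total over 16 neuron and Müller cell genes was within the range of the controls in both.

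The general macrophage, disease-associated and proliferation lists had 0 genes passing in edgeR for minocycline against light. At an unadjusted p under 0.05 and without overlap, 11 of 11, 12 of 14 and 5 of 5 of their tested genes were lower, with median log2 fold changes of -3.90, -2.04 and -4.56. Of all genes 12.1% were lower at that p and 28.1% without overlap. Pros1, a ligand of the phagocytic receptor MERTK, fell from 691 and 1113 to 327 and 249 counts (log2 fold change -1.75, SE 0.18, edgeR adjusted p = 0.0444) and was the only gene of the 19 other homeostatic genes that passed. Of the 17 tested ligands and upstream genes 0 passed in edgeR, with 2 higher and 5 lower at an unadjusted p under 0.05. Over all genes 9.04% were higher and 12.1% lower at that p. Cx3cl1 had 1092 and 357 counts with minocycline (log2 fold change 0.35, SE 0.42, edgeR adjusted p = 0.689). The higher library, minocycline A, was also the higher one for all 8 members and not for Cx3cr1 alone. Tgfb1 and Csf1 had log2 fold changes of -2.00 and -1.14 (adjusted p = 0.0949 and 0.121). Cebpa, Irf8, Sfpi1 and Runx1 had values from -3.59 to -2.81 and did not pass (adjusted p from 0.0698 to 0.0921). Med12l and Cask were at -0.88 and -0.12 (adjusted p = 0.0906 and 0.684).

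Minocycline with light was also set against control, to ask how far the treated retinas stood from untreated ones. Of the 7 members tested 0 passed in edgeR, 0 had an unadjusted p under 0.05, 0 passed under DESeq2, and for none did the groups separate (of 14181 genes 0.162% passed and were higher, 5.39% were higher at an unadjusted p under 0.05 and 15.5% were higher without overlap). The log2 fold changes ran from 0.16 to 0.86, with a median of 0.44 against 0.02 over all genes. The intervals leave room for change, from -0.31 to 2.04 for Tmem119 (log2 fold change 0.86), from -0.34 to 1.80 for Olfml3 (0.73), and from -0.71 to 1.04 for Gpr34 (0.16). For P2ry12, Cx3cr1 and Sall1 the upper bounds were 1.33, 1.37 and 1.35. P2ry13 had too few counts to be tested, and its ratio of 15 to 4 counts, corrected for library size, was 2.54 with a counting interval of 0.808 to 10.5. This comparison shares the control libraries with that of light and control, and the minocycline libraries with that of minocycline and light.

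Genes whose pattern over the 6 libraries was most like that of the members were sought by Pearson correlation with the mean standardized log2 CPM of the 8. The highest 5 outside the set were Pkib (r = 0.999), Fmnl1 (0.998), Fhl1 (0.997), 4632428N05Rik (0.997) and Gng10 (0.995). Pkib, an inhibitor of protein kinase A, lay at 1.36 and 0.98 CPM in the controls, 2.91 and 5.92 CPM after light, and 2.10 and 1.16 CPM with minocycline. Among 14781 genes 475 had r above 0.95, and 196 had the same rank order of libraries, so that such likeness over 6 libraries that share 1 order was common. Within the set P2ry12 (r = 0.997) and Olfml3 (0.994) followed the mean most closely. Siglech followed it least, with r = 0.537.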

How the data were processed

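Whole retinas of 6 mouse samples in 3 groups were studied by RNA sequencing. From stranded mRNA libraries the authors obtained single reads, mapped these to mm10 (GRCm38) by STAR, summarised them by gene through RNA Express, and deposited the resulting counts. These are whole numbers without scaling, although the data statement calls them normalized. Annotation, the versions of STAR and DESeq2 and the use of strand in counting are not given in the sources used here. The study calls the 2 libraries of a group biological replicates, and the number of retinas in a library is not given.

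Each pair of groups was fitted on its own in edgeR (4.0.16, under R 4.3.3) after filterByExpr and TMM scaling. Every adjusted p in the text comes from the robust quasi-likelihood F test, by the method of Benjamini and Hochberg over the genes tested, unless DESeq2 or another fit is named. SE is the log2 fold change divided by the root of F, and log2 CPM for the profile used a prior count of 2. DESeq2 1.42.0 (with a normal prior on fold changes, or none), other scalings and filters, a joint fit and fits without 1 library were alternatives. Depth was 15205930 to 22856922 counts, which limits members with few counts. Of 23420 genes, 4791 had 0 counts throughout, and 0 value columns were unused.

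The members and lists were chosen with earlier results of these data known. Named were the members, the 3 largest and 3 smallest fold changes of light against control in the homeostatic, transcription factor and disease-associated lists, the ligand, host and neighbouring genes except 1 that is not reported here, and the 5 genes most like the members. Others, in counts of 5 or fewer or as defining markers, were named after their values were seen. The replicate number was not used as a block, since it did not pair the samples.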

Additional observations from a re-analysis of the deposited data

How the results depend on the processing

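For light against control, the number of members passing was 3 when at least 10 counts were required in every library, which removed P2ry13 and Sall1 from the test, and from 0 to 7 when 1 library was left out, with 0 without either control. All other alternatives gave from 4 to 7 members. Scaling by total library size shifted the all-gene median to 0.2376 (log2) and the passing genes to 1930 higher and 133 lower, against 1079 and 545, and left every member with its direction. For minocycline against light, 4 members passed with DESeq2 without shrunken fold changes, 4 with shrunken ones, 4 with all 6 libraries in one fit and 2 with no filter on low counts. With 1 library left out 0 to 4 passed. The total library size moved the median of all genes there to -0.1669. For minocycline against control 0 passed throughout.

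Reversed directions were seen only for members that did not pass in the fit concerned. Siglech in minocycline against light went to -0.0090 with total library size and ranged from -0.5108 to 0.596 with 1 library left out. In minocycline against control the ranges with 1 library left out were -0.0476 to 0.7563 for P2ry12, -0.0432 to 1.355 for Tmem119, -0.5287 to 0.7519 for Cx3cr1, -0.2185 to 0.8848 for Siglech, -0.1809 to 0.6046 for Gpr34 and -0.1164 to 0.5409 for Sall1. The lowest values were those without minocycline A, and for Gpr34 that without control 2. The causes were not tested.

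A replicate block for light against control gave 6 members passing, with 1668 higher and 857 lower over all genes. The numbers did not pair the samples, since over 14349 genes the deviations of control 1 and light 1 correlated at -0.0105 in 2 pairs. For comparisons with minocycline, no paired analysis was possible because the header gives both of its columns 1 replicate number. With 2 libraries per group, a lone library left after an omission was assumed to vary like the other group.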
